A study of Mus musculus with 3 samples.

Results

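Early blood-like classical monocytes were taken from single-cell RNA profiles of injured mouse liver by a rule on transcript counts. The members were selected on the measured UMIs of 26 genes, and they made up 2156 of 30684 kept barcodes. A barcode stands for 1 captured droplet, and unique molecular identifiers (UMIs) count its transcripts. Those kept had 200 genes or more, a total of 500 UMIs or more, and no more than 20% mitochondrial UMIs. A classical monocyte barcode had at least 3 of the 7 genes Ly6c2, Ccr2, Chil3, F13a1, Vcan, Fn1 and Plac8, at least 1 UMI of Csf1r, the receptor for the main monocyte growth factor, and at most 2 UMIs of the complement genes C1qa, C1qb and C1qc together. It had fewer than 3 of the 6 patrolling monocyte genes Ace, Treml4, Spn, Cd300e, Eno3 and Adgre4, and no UMI of Cd209a, Cd79a or Cd3e. Among these, the early monocytes were the barcodes whose summed UMIs of Vcan, Chil3, Plac8 and Hopx exceeded those of Thbs1, Cd86, Ccl2, Gab1 and Pid1. The remaining 973 barcodes of the gate, called other classical monocytes below, are the closest population. Because the transcripts of these same barcodes chose the members, every contrast of early with other classical monocytes is given as a description with no test.

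Mice were injected with 500 mg/kg of paracetamol (acetaminophen, APAP), which injures hepatocytes. At 6 h they received MSCs (mesenchymal stromal cells) engineered with bispecific polyvalent peptides, native MSCs, or PBS, and the liver was taken at 4 days. The groups are called engineered MSC, native MSC and PBS, all 3 had the paracetamol injury, and no uninjured liver was analysed here. Each group is 1 mouse and 1 library, which leaves the variation among mice unmeasured. Groups could not be tested against each other, and each interval covers counting error only. Strain, sex and age were not given in the labels used here.

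Classical monocytes leave the bone marrow through the chemokine receptor CCR2, circulate with high surface Ly6C, and enter injured tissue, where they lose Ly6C and mature into macrophages. In mice they come from more than one progenitor, and a neutrophil-like form rich in granule and secretory proteins has been set apart from a dendritic-like form rich in antigen presentation genes. In paracetamol injury of the liver, monocytes of this kind follow neutrophils into the necrotic areas around the central veins.

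The label was checked on 19 classical monocyte markers that the gate did not use. Of these, 13 in engineered MSC, 15 in native MSC and 15 in PBS were at least 2 times as high in early monocytes as in B-cell barcodes of the same liver, which served as a measure of free RNA. Their median level was 318 CPM (UMIs of a gene scaled to a common total over the summed barcodes) in engineered MSC, 415 in native MSC and 302 in PBS, against 33.7 in engineered MSC, 115 in native MSC and 41.9 in PBS in the B-cell barcodes. Lyz2, which encodes lysozyme of monocytes and macrophages, stood at 13356 CPM in engineered MSC, 16899 CPM in native MSC and 14399 CPM in PBS. Ly6c1 was at 0 UMIs in engineered MSC, which allows a count of up to 3, and had 5 UMIs in native MSC and 40 in PBS. Against patrolling monocyte barcodes of the same liver, 7 of the 19 markers were higher in engineered MSC, 11 in native MSC and 12 in PBS.

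Depth and material from other cells differed between the livers. The early monocytes held 1011287 UMIs in engineered MSC, 13256672 in native MSC and 3446056 in PBS, and their median depth was 7702 UMIs in engineered MSC, 8483.5 in native MSC and 5789 in PBS. No barcode sequence was shared between libraries among the early monocytes, against 44 shared by engineered MSC and PBS, 39 by native MSC and PBS, and 46 by engineered MSC and native MSC among all barcodes. Summed over 14 hepatocyte genes, early monocytes had 4179 CPM in engineered MSC, 1435 in native MSC and 434 in PBS, and B-cell barcodes had 8056 in engineered MSC, 2453 in native MSC and 511 in PBS. Summed over 7 red cell genes, early monocytes had 81.1 CPM in engineered MSC, 7718 in native MSC and 4.93 in PBS. The 10 neutrophil genes summed to 3588 CPM in engineered MSC, 5291 in native MSC and 1031 in PBS, against 239 in engineered MSC, 2036 in native MSC and 392 in PBS in the B-cell barcodes, and Ly6g was at 0 in PBS. Transcripts of these cells therefore move with the groups, and their part in the levels below was not tested.

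Early monocytes were the most frequent in native MSC and the least frequent in engineered MSC. They made up 113 of 10044 kept barcodes in engineered MSC (1.13%, exact Clopper-Pearson 95% interval 0.928 to 1.35), 1474 of 10203 in native MSC (14.4%, 13.8 to 15.1) and 569 of 10437 in PBS (5.45%, 5.02 to 5.90). The share was 4.85-fold lower in engineered MSC than in PBS (95% interval 3.95 to 5.98), 2.65-fold higher in native MSC than in PBS (2.40 to 2.92) and 12.8-fold lower in engineered MSC than in native MSC (10.6 to 15.7). Other classical monocytes made up 0.687% of kept barcodes in engineered MSC, 4.45% in native MSC and 4.31% in PBS. Patrolling monocyte barcodes, gated on at least 3 of the 6 patrolling genes, were 0.169% in engineered MSC, 0.961% in native MSC and 1.07% in PBS. A share depends on every other cell in the suspension, so more monocytes cannot be told apart from fewer other cells.

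Among classical monocyte barcodes alone, the early side held 113 of 182 in engineered MSC (62.1%, 54.6 to 69.2), 1474 of 1928 in native MSC (76.5%, 74.5 to 78.3) and 569 of 1019 in PBS (55.8%, 52.7 to 58.9). At full depth the native MSC share lay above both others, and the intervals of engineered MSC and PBS overlapped. The gate asks for a UMI of Csf1r, a gene with a median of 2 UMIs per early monocyte in each liver, and so it admits deep barcodes more readily than shallow ones. Kept barcodes with at least 1500 UMIs were also thinned at random to 1500 UMIs, and shallower ones were left out. Early monocytes then made up 0.670% of 8508 barcodes in engineered MSC, 6.44% of 9415 in native MSC and 5.46% of 9220 in PBS. The ratio of native MSC to PBS was then 1.18 (95% interval 1.05 to 1.33), against 2.65 at full depth, while engineered MSC lay 8.14-fold below PBS and 9.61-fold below native MSC. Of thinned classical monocyte barcodes the early side held 68.7% in engineered MSC (57.6 to 78.4), 71.4% in native MSC (68.2 to 74.4) and 58.1% in PBS (54.7 to 61.4), so the intervals of the MSC livers overlapped. Their ratio was 0.962 in engineered MSC over native MSC (0.720 to 1.26). In the thinned data 53.1% of the early monocytes that were deep enough lacked Csf1r in engineered MSC, 63.4% in native MSC and 45.3% in PBS. Thinning also let barcodes in, 11 in engineered MSC, 166 in native MSC and 260 in PBS, and of these 2 in engineered MSC, 105 in native MSC and 185 in PBS held more than 2 C1q UMIs at full depth. Of kept barcodes, the native MSC to PBS ratio thus moved with depth, and the share in engineered MSC was the lowest in both settings. Of classical monocyte barcodes, PBS had the lowest share in both settings, with an interval that overlapped that of engineered MSC.

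**Figure D1:**
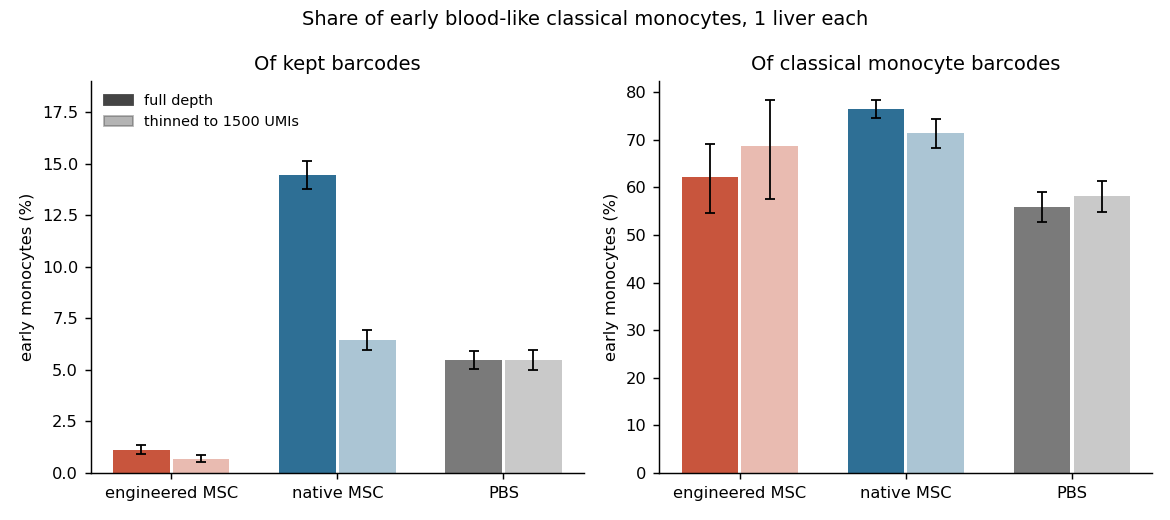
Percent of barcodes that were early monocytes in each liver, of all kept barcodes (left) and of classical monocyte barcodes (right), at full depth (dark bars) and with each barcode thinned to 1500 UMIs, shallower barcodes left out (light bars); error bars are exact 95% binomial intervals. Of kept barcodes the engineered MSC bar stood at 1.13%, and the native MSC bar at 14.4% at full depth and 6.44% when thinned.

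At the boundary of the rule, 2 early monocytes in engineered MSC, 24 in native MSC and 18 in PBS were inside by a single UMI. Another 4 barcodes in engineered MSC, 17 in native MSC and 15 in PBS had equal sums and stayed outside. The median sum of the 4 early genes was 53 UMIs in engineered MSC, 79 in native MSC and 40 in PBS, against medians of 13 in engineered MSC, 25 in native MSC and 14 in PBS for the 5 opposing genes. An early sum of at least 2 times the other sum plus 1 was met by 79 of 113 early monocytes in engineered MSC. In native MSC 983 of 1474 met it, and in PBS 345 of 569.

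The genes of the rule themselves differed in level between livers, and these values are a description. Chil3, a secreted chitinase-like protein, was at 2921 CPM in engineered MSC, 5164 CPM in native MSC and 3401 CPM in PBS. Plac8, a small cysteine-rich protein of blood monocytes, was at 4131 CPM in engineered MSC, 3269 CPM in native MSC and 3269.5 CPM in PBS. Versican, the matrix proteoglycan encoded by Vcan, was at 287 CPM in engineered MSC, 484 CPM in native MSC and 203 CPM in PBS. These 3 genes did not share an order, since Chil3 and Vcan were highest in native MSC and Plac8 in engineered MSC. Hopx, a homeodomain-only protein, was at 162 CPM in engineered MSC, 273 CPM in native MSC and 166 CPM in PBS. Ly6c2, which encodes the surface marker that names the subset, was 2.18-fold higher (95% interval 2.01 to 2.36) in engineered MSC than in PBS, at 959 CPM in engineered MSC, 435 CPM in native MSC and 441 CPM in PBS. Ccr2 was lower in both MSC livers than in PBS, at 659 CPM in engineered MSC, 847 CPM in native MSC and 1124 CPM in PBS, and Csf1r likewise, at 292 CPM in engineered MSC, 277 CPM in native MSC and 441 CPM in PBS.

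Between livers, genes with at least 50 UMIs over the pair were compared, and a ratio above 2-fold either way was counted. By that count 288 of 7824 genes were higher (3.68%) and 240 lower (3.07%) in engineered MSC than in PBS. In native MSC against PBS, 477 of 10430 genes were higher (4.57%) and 498 lower (4.77%), 975 in all (9.35%). With ratios scaled so that the median over genes is 0, these counts were 566 higher and 345 lower. In engineered MSC against native MSC, 844 of 10094 were higher (8.36%) and 327 lower (3.24%), or 643 higher and 420 lower when scaled in that way. Many of these ratios rest on very few barcodes, so levels are also given with the top 5% of barcodes of each gene left out, called trimmed below. Among genes found in at least 10% of early monocytes of both livers, trimmed ratios passed 2-fold for 123 of 6178 higher (1.99%) and 151 lower (2.44%) in engineered MSC against PBS. The trimmed counts were 78 of 6174 higher (1.26%) and 126 lower (2.04%) in native MSC against PBS, and 230 of 6634 higher (3.47%) and 103 lower (1.55%) in engineered MSC against native MSC. The pairs share livers, so they are not independent. Over genes with at least 20 UMIs the median log2 ratio was -0.01 in engineered MSC against PBS, -0.15 in native MSC against PBS and 0.17 in engineered MSC against native MSC, and the list medians below are to be read against these. Each list is described by the members with at least 20 UMIs over the pair, by how many were higher or lower, and by their median log2 ratio.

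Most receptors for recruitment and adhesion were lower in engineered MSC than in PBS, and Cx3cr1 was lower in both MSC livers. Of 17 measured genes, 3 were higher and 14 lower in engineered MSC than in PBS (median log2 ratio -0.35, against -0.01 over all genes at the same minimum of 20 UMIs), and 8 were higher and 9 lower in native MSC than in PBS (median -0.08, against -0.15). Of all genes compared 52.7% were lower in engineered MSC than in PBS and 65.7% in native MSC than in PBS. The shift in engineered MSC against PBS was smaller in other settings. With each barcode counted alike 12 of 17 were lower (median -0.13, against -0.03 over all genes), and trimmed 10 of 15 (median -0.24, against 0.04). Without barcodes that held at least 5 UMIs of azurophil granule genes or of cell cycle genes, 12 of 17 were lower (median -0.16, against -0.07). Cx3cr1, the fractalkine receptor that increases as monocytes mature toward the patrolling form, was at 87.0 CPM in engineered MSC, 69.3 CPM in native MSC and 217 CPM in PBS. It was 2.50-fold lower (95% interval 2.00 to 3.15) in engineered MSC and 3.14-fold lower (95% interval 2.84 to 3.46) in native MSC than in PBS, and it had a UMI in 48 of 113 early monocytes in engineered MSC, 522 of 1474 in native MSC and 330 of 569 in PBS. Itgal, the alpha chain of the integrin LFA-1, was at 243 CPM in engineered MSC, 194 CPM in native MSC and 379.9 CPM in PBS, lower in both MSC livers. Nr4a1, a nuclear receptor needed for patrolling monocytes and also an immediate early gene, was at 414 CPM in engineered MSC, 492 CPM in native MSC and 705 CPM in PBS. Ccr1, a receptor for CCL3 and related chemokines, separated the MSC livers, at 95.9 CPM in engineered MSC, 222 CPM in native MSC and 149 CPM in PBS. It was 2.32-fold lower (95% interval 1.89 to 2.87) in engineered MSC than in native MSC. The summed level of 8 patrolling monocyte genes was 1061 CPM in engineered MSC, 1157 in native MSC and 1646 in PBS.

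Most secretory and granule genes of the neutrophil-like monocyte form were higher in native MSC than in PBS, and they included genes spread over most of the barcodes. Of 13 measured genes 9 were higher, all 9 above 2-fold, and 4 lower, 3 of them above 2-fold (median log2 ratio 1.60), and 34.3% of all genes compared were higher in that pair. Lcn2, the iron-siderophore binder lipocalin 2, was at 311 CPM in engineered MSC, 722 CPM in native MSC and 283 CPM in PBS, with a UMI in 48 early monocytes in engineered MSC, 1219 in native MSC and 197 in PBS. Trimmed, it was 4.25-fold higher (95% interval 3.83 to 4.73) in native MSC than in PBS and 3.65-fold lower (95% interval 3.07 to 4.39) in engineered MSC than in native MSC. Mmp8, a collagenase stored in neutrophil granules, was at 165 CPM in engineered MSC, 313 CPM in native MSC and 106 CPM in PBS, and B-cell barcodes held 0 CPM in engineered MSC, 16.0 CPM in native MSC and 0 CPM in PBS. Saa3, an acute phase serum amyloid, was at 230.4 CPM in engineered MSC, 438 CPM in native MSC and 144 CPM in PBS, but B-cell barcodes of native MSC held 561 CPM, above the early monocytes of that liver. Lrg1, a secreted leucine-rich glycoprotein chosen here after its values were seen, had 106 UMIs in engineered MSC, 3271 in native MSC and 124 in PBS. Its trimmed level was 74.5 CPM in engineered MSC, 198 CPM in native MSC and 14.0 CPM in PBS, with a UMI in 36.3% of early monocytes in engineered MSC, 68.2% in native MSC and 13.01% in PBS. Wfdc21, a small secreted WAP domain protein chosen likewise, had the same order, with a UMI in 47.8% of early monocytes in engineered MSC, 68.8% in native MSC and 9.49% in PBS. Its level was 147 CPM in engineered MSC, 300 CPM in native MSC and 36.9 CPM in PBS. B-cell barcodes held 80.8 CPM of Wfdc21 in engineered MSC, 70.3 CPM in native MSC and 8.97 CPM in PBS. For Lcn2 they held 13.6 CPM in engineered MSC, 129 CPM in native MSC and 5.98 CPM in PBS. For Lrg1 they held 24.2 CPM in engineered MSC, 47.9 CPM in native MSC and 5.98 CPM in PBS. The part of free RNA in these levels was not tested. Retnlg, the resistin-like protein of neutrophils, was at 17.8 CPM in engineered MSC, 525 CPM in native MSC and 14.5 CPM in PBS, and the B-cell barcodes held 31.2 CPM in engineered MSC, 201 CPM in native MSC and 5.98 CPM in PBS. Lcn2, Mmp8, Saa3, Lrg1, Wfdc21 and Retnlg were all highest in native MSC. Ly6g, the surface marker of neutrophils, had 4 UMIs in engineered MSC, 233 in native MSC and 0 in PBS.

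S100a8 and S100a9, which encode the calcium-binding subunits of calprotectin, were higher in both MSC livers than in PBS on all UMIs. S100a8 was at 1298 CPM in engineered MSC, 1606 CPM in native MSC and 269 CPM in PBS, and B-cell barcodes held 43.8 CPM in engineered MSC, 479 CPM in native MSC and 15.0 CPM in PBS. S100a9 was at 1981 CPM in engineered MSC, 2264 CPM in native MSC and 396 CPM in PBS, and B-cell barcodes held 95.1 CPM in engineered MSC, 892 CPM in native MSC and 65.8 CPM in PBS. The 10 barcodes with the most S100a8 UMIs held 94.8% of them in engineered MSC, 17.1% in native MSC and 75.2% in PBS. Trimmed, S100a8 was at 154 CPM in engineered MSC, 664 CPM in native MSC and 38.9 CPM in PBS. It was then 3.95-fold higher (95% interval 3.09 to 5.05) in engineered MSC than in PBS. S100a6 and S100a11, its relatives, were at 1767 CPM in engineered MSC, 2577 CPM in native MSC and 2171 CPM in PBS and at 751 CPM in engineered MSC, 1152 CPM in native MSC and 855 CPM in PBS. The other S100 genes were within 2-fold of PBS in both MSC livers, and over the 7 genes the median log2 ratio was -0.19 in engineered MSC against PBS and 0.25 in native MSC against PBS. With marked doublets left out, 1 of the 7 genes was higher in engineered MSC than in PBS, at a log2 ratio of 0.87, and 6 were lower. With granule-rich and cycling barcodes left out, the highest log2 ratio of the 7 was 0.85, and none passed 2-fold.

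**Figure D2:**
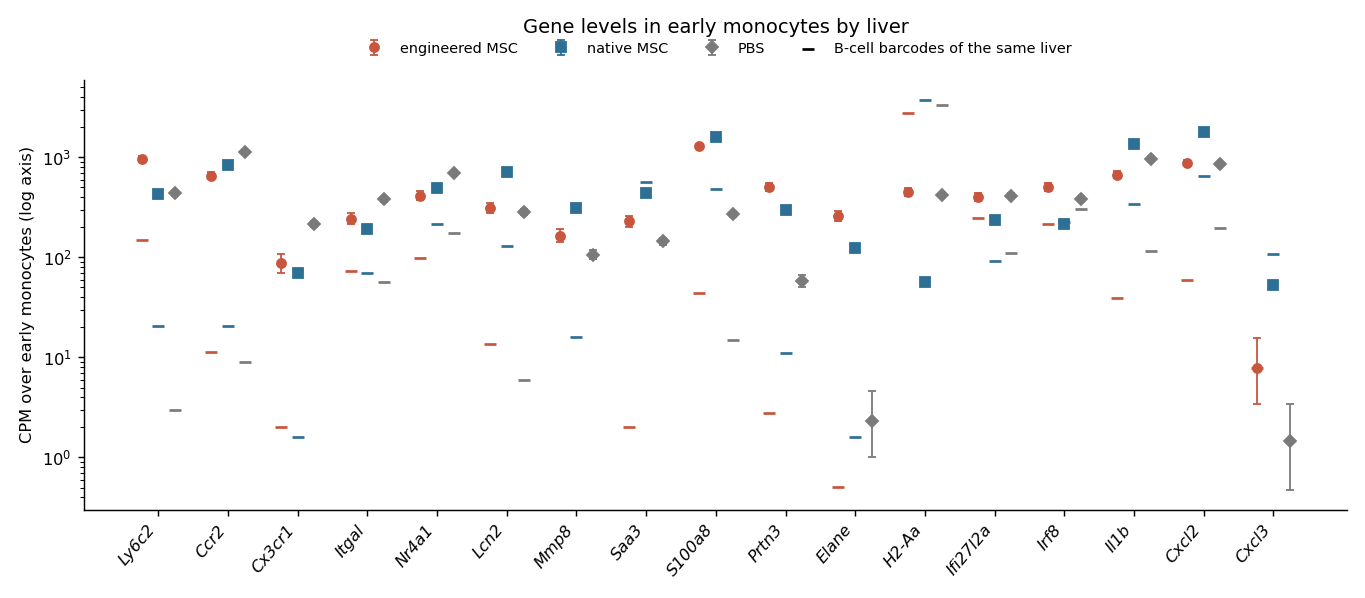
Level of chosen genes in early monocytes of each liver, in CPM on a log axis with exact Poisson 95% intervals (counting error only); short dashes give the level in B-cell barcodes of the same liver where it was above 0. Lcn2, Mmp8 and Saa3 were highest in native MSC, H2-Aa was lowest there, and Cx3cr1 was highest in PBS.

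Azurophil granule genes, which are normally transcribed in bone marrow progenitors and not in mature blood cells, came from small subsets of early monocytes. Elane, which encodes neutrophil elastase, had 263 UMIs in 7 barcodes in engineered MSC, 1648 UMIs in 57 barcodes in native MSC and 8 UMIs in 4 barcodes in PBS. Scaled to the total UMIs of early monocytes in each liver, Elane was highest in engineered MSC and lowest in PBS. Ctsg, the protease cathepsin G, stood at 177 CPM in engineered MSC, 93.5 CPM in native MSC and 1.45 CPM in PBS. Mpo, the peroxidase of the azurophil granule, was at 86.0 CPM in engineered MSC, 54.5 CPM in native MSC and 1.16 CPM in PBS. Both followed the same order, and in engineered MSC all Ctsg UMIs lay in 6 barcodes and all Mpo UMIs in 5. Prtn3, proteinase 3, was spread more widely, with a UMI in 36 of 113 early monocytes in engineered MSC, 799 of 1474 in native MSC and 122 of 569 in PBS. Its level was 502 CPM in engineered MSC, 298 CPM in native MSC and 58.0 CPM in PBS, and trimmed 60.0 CPM in engineered MSC, 115 CPM in native MSC and 30.8 CPM in PBS. Trimming reversed the order of the MSC livers, and Prtn3 was then 3.73-fold higher (95% interval 3.04 to 4.62) in native MSC than in PBS. At least 5 UMIs of Elane, Mpo, Ctsg and Prtn3 together were found in 8 early monocytes in engineered MSC (7.08%, 95% interval 3.11 to 13.5), 98 in native MSC (6.65%, 5.43 to 8.04) and 4 in PBS (0.703%, 0.192 to 1.79). Their median depth was 19676 UMIs in engineered MSC, 11084 in native MSC and 11955 in PBS, against 7331 in engineered MSC, 8322 in native MSC and 5781 in PBS in the remaining early monocytes. Of the granule barcodes 5 in engineered MSC, 24 in native MSC and 0 in PBS were marked as doublets. Leaving Prtn3 aside, only 6 of the 8 in engineered MSC, 10 of the 98 in native MSC and 1 of the 4 in PBS held at least 5 UMIs of the other genes.

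The promoters of these 4 genes are shown because these genes define the granule subset. Each line holds the 300 bases from 250 before to 50 after the RefSeq start site on mouse build GRCm38.p6, read 5' to 3' in the direction of transcription, for Elane at chr10:79886062-79886361 on the plus strand, Prtn3 at chr10:79879417-79879716 on the plus strand, Mpo at chr11:87793534-87793833 on the plus strand and Ctsg at chr14:56102525-56102824 on the minus strand. Capitals mark matches to the core letters searched for on both strands, with no overlaps among the matches.
Elane: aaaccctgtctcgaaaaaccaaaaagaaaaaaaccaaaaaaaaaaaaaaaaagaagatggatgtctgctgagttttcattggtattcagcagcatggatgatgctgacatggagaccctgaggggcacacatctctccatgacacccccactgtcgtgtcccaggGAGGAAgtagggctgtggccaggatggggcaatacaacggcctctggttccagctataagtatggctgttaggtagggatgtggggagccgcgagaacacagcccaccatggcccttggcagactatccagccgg
Prtn3: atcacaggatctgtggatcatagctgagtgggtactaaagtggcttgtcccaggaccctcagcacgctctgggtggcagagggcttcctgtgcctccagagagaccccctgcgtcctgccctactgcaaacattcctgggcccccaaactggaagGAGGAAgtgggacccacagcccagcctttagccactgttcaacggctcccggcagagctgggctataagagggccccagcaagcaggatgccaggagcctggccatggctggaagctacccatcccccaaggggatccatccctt
Mpo: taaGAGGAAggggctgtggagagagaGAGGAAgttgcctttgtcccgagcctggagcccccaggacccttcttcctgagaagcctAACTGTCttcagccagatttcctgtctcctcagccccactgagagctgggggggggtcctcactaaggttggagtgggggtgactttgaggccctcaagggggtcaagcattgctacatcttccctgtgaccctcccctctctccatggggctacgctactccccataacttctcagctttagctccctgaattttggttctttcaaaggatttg
Ctsg: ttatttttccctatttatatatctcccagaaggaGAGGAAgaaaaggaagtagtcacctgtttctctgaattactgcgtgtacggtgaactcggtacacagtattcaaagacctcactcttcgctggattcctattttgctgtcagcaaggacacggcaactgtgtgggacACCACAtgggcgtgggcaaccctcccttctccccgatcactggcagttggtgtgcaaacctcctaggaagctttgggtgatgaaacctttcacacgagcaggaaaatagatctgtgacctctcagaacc

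The searched letters were GAGGAA for PU.1, TGTGGT for Runx factors, AAC, any base and GTC for Myb and TTGCNNAA for C/EBP factors, all regulators of myeloid cells. The PU.1 letters were present in each of the 4 promoters, in Elane 85 bases and in Prtn3 95 bases before the start, in Mpo 247 and 224 bases before it, and in Ctsg 216 bases before it. They occur in 28.3% of 32851 RefSeq mouse promoters of this length. The Myb letters were found in Mpo (in 8.01% of all promoters), the Runx letters on the opposite strand in Ctsg (16.8%) and the C/EBP letters in none of the 4 windows (10.8%). A match of letters is not evidence of binding.

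Cycling early monocytes were most frequent in engineered MSC, where most were also granule barcodes. At least 5 UMIs of 6 cell cycle genes were found in 8 early monocytes in engineered MSC (7.08%, 3.11 to 13.5), 28 in native MSC (1.90%, 1.27 to 2.73) and 2 in PBS (0.351%, 0.0426 to 1.26). In engineered MSC 7 of the 8 granule barcodes also had 5 cell cycle UMIs, in native MSC 17 of 98 and in PBS 1 of 4. The granule barcodes of engineered MSC held 107 CPM of Csf1r, against 333 CPM in the remaining early monocytes there, and 3698 CPM of Lyz2, against 15534 CPM. Mki67, the proliferation antigen, was at 142 CPM in engineered MSC, 19.8 CPM in native MSC and 4.93 CPM in PBS. Top2a, a topoisomerase of dividing cells, was at 174 CPM in engineered MSC, 25.2 CPM in native MSC and 5.22 CPM in PBS. All 16 cell cycle genes were higher in engineered MSC than in PBS, with a median log2 ratio of 3.39, and trimmed the median was 0.36. With the granule-rich and cycling barcodes left out it was -0.04 over 8 genes, and the neutrophil-like list, at 1.42 over 12 genes, was at -0.16 over 9 genes. Members of both lists had chosen the barcodes left out, so a fall of both medians was built in and nothing is read from it. The neutrophil-like list was also at -0.35 with marked doublets left out. Camp, a specific granule gene of later neutrophil precursors, had all its UMIs in 1 early monocyte in engineered MSC and in 1 in PBS, and in native MSC 29 held a UMI of it. At least 5 UMIs of Camp, Ngp and Ltf together were found in 1 early monocyte in engineered MSC, 10 in native MSC and 1 in PBS.

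**Figure D3:**
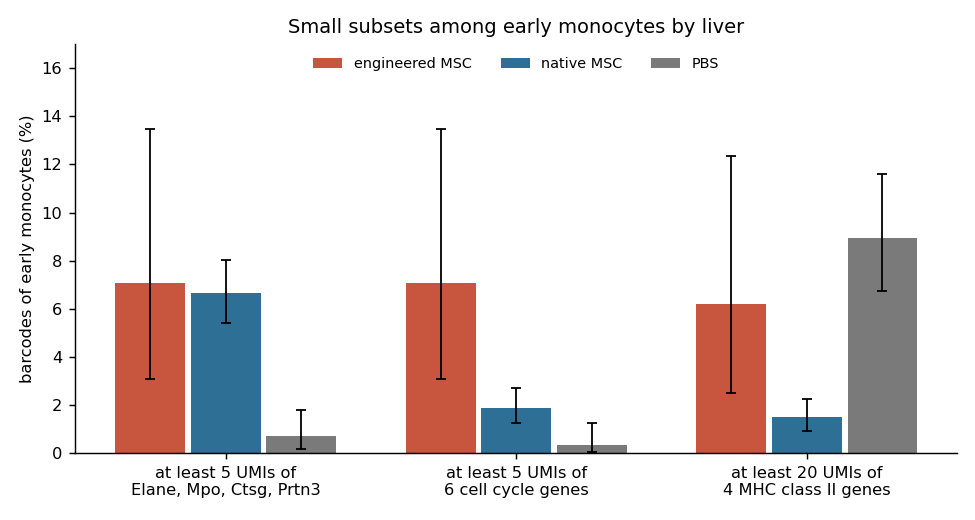
Percent of early monocytes in each liver that held at least 5 UMIs of the azurophil granule genes, at least 5 UMIs of 6 cell cycle genes, or at least 20 UMIs of 4 MHC class II genes; error bars are exact 95% binomial intervals. Granule barcodes were 7.08% in engineered MSC and 6.65% in native MSC against 0.703% in PBS, and class II barcodes were fewest in native MSC, at 1.49%.

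Most genes of the dendritic-like form were lower in native MSC than in the other livers. Of 13 measured genes 12 were lower in native MSC than in PBS, 8 of them above 2-fold (median log2 ratio -1.24), against 65.7% of all genes compared that were lower at all. In engineered MSC against PBS 9 were higher and 4 lower (median 0.14, but trimmed -0.82), and against native MSC all 13 were higher (median 1.15), with 62.6% of all genes higher at all. H2-Aa, an MHC class II alpha chain, was at 449.9 CPM in engineered MSC, 56.5 CPM in native MSC and 422 CPM in PBS, 7.47-fold lower (95% interval 6.84 to 8.17) in native MSC than in PBS. This interval takes each UMI as an independent count, and it is too narrow because few barcodes held most class II UMIs. Cd74, the invariant chain that escorts class II molecules, was at 827 CPM in engineered MSC, 141 CPM in native MSC and 817 CPM in PBS. Class II genes were higher still in B-cell barcodes, for H2-Aa at 2781 CPM in engineered MSC, 3778 CPM in native MSC and 3352 CPM in PBS. B cells transcribe class II genes themselves, so their barcodes give no measure of free RNA for this list. The part of free RNA in the class II levels of early monocytes was not tested. Ciita, the transactivator of class II genes, had 27 UMIs in engineered MSC, 28 in native MSC and 48 in PBS, and Slamf7, a surface receptor, 45 in engineered MSC, 308 in native MSC and 73 in PBS. Scaled to the total UMIs of early monocytes in each liver, both were highest in engineered MSC, and Ciita was lowest in native MSC. Slamf7 went against the rest of the list, at a log2 ratio of 0.13 in native MSC over PBS. Most class II UMIs lay in few early monocytes. Barcodes with at least 20 UMIs of Cd74, H2-Aa, H2-Ab1 and H2-Eb1 were 7 in engineered MSC (6.19%, 2.53 to 12.3), 22 in native MSC (1.49%, 0.938 to 2.25) and 51 in PBS (8.96%, 6.75 to 11.6). They held 93.7% of the class II UMIs of early monocytes in engineered MSC, 72.0% in native MSC and 85.4% in PBS. In the remaining early monocytes H2-Aa was at 17.3 CPM in engineered MSC, 9.36 in native MSC and 51.1 in PBS. At least 2 dendritic cell genes were found in 5 of the 7 in engineered MSC, 15 of the 22 in native MSC and 26 of the 51 in PBS. In engineered MSC these 7 barcodes held 21 UMIs of Xcr1, the chemokine receptor of type 1 dendritic cells, and 2 UMIs of Chil3, which goes against the monocyte label for them. In native MSC the 22 held 2 UMIs of Xcr1 and 569 of Chil3, and in PBS the 51 held 2 UMIs of Xcr1, 467 of Chil3 and 24 of Siglech, a receptor of plasmacytoid dendritic cells.

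Type I interferon genes were lower in native MSC than in PBS. Of 17 genes of the type I interferon response all 17 were lower in native MSC than in PBS, 4 of them above 2-fold (median log2 ratio -0.70, trimmed -0.96), where 65.7% of all genes compared were lower at all and 4.77% above 2-fold. In engineered MSC against PBS 5 of 16 were higher and 11 lower (median -0.26), with 52.7% of all genes lower, and against native MSC 14 of 16 were higher (median 0.27, against 0.17 over all genes, of which 62.6% were higher). The direction in engineered MSC against PBS changed with the weighting. With each barcode counted alike 11 of 16 were higher (median 0.18), and trimmed 10 of 14 were lower (median -0.21). The median was -0.04 without marked doublets, and also -0.04 without granule-rich and cycling barcodes. Ifi27l2a, a mitochondrial protein induced by interferon, was at 403 CPM in engineered MSC, 234 CPM in native MSC and 413 CPM in PBS. Bst2, which encodes the virus-tethering protein tetherin, was at 271 CPM in engineered MSC, 162 CPM in native MSC and 261 CPM in PBS. Oasl2, an oligoadenylate synthetase-like gene, was at 96.9 CPM in engineered MSC, 50.8 CPM in native MSC and 90.8 CPM in PBS. For these 3 genes the intervals of engineered MSC and PBS overlapped, and native MSC was lower than both. Usp18, which removes ISG15 from proteins, was at 20.8 CPM in engineered MSC, 9.81 CPM in native MSC and 24.4 CPM in PBS. Rsad2, the antiviral enzyme viperin, was at 33.6 CPM in engineered MSC, 29.5 CPM in native MSC and 59.2 CPM in PBS. Irf8, a transcription factor of monocyte and dendritic progenitors, was at 508 CPM in engineered MSC, 215 CPM in native MSC and 384 CPM in PBS, and 10 barcodes held 68.7% of its UMIs in engineered MSC.

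Genes induced mainly by interferon-gamma were higher in engineered MSC. Of 12 genes 11 were higher than in PBS (median log2 ratio 0.53) and all 12 higher than in native MSC (median 0.77), against 47.3% and 62.6% of all genes compared. Above 2-fold against PBS were 4 of the 12. Trimmed, 7 genes could be measured against PBS, and 6 of them were higher, 1 above 2-fold (median 0.31). Cxcl10, a chemokine for activated T cells, was at 127 CPM in engineered MSC, 23.8 CPM in native MSC and 18.3 CPM in PBS, but with UMIs in 7 early monocytes in engineered MSC, 60 in native MSC and 19 in PBS. Cxcl9, its relative, had 53 UMIs in 3 barcodes in engineered MSC, 30 UMIs in 10 barcodes in native MSC and 49 UMIs in 7 barcodes in PBS. Gbp5, a guanylate-binding protein, was at 16.8 CPM in engineered MSC, 4.53 CPM in native MSC and 2.90 CPM in PBS. Socs1, a brake on cytokine signalling, was at 8.90 CPM in engineered MSC, 3.55 CPM in native MSC and 7.54 CPM in PBS. Engineered MSC and PBS thus lay close together for Socs1, and the levels of Gbp5 and Socs1 were low in every liver.

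Inflammatory cytokine and chemokine genes were highest in native MSC. Of 17 measured genes 14 were higher in native MSC than in PBS, 5 above 2-fold (median log2 ratio 0.59), where 34.3% of all genes compared were higher at all and 4.57% above 2-fold. In engineered MSC 13 of 17 were lower than in native MSC, 6 above 2-fold (37.4% of all genes compared were lower at all; median -0.61, trimmed -1.07). In engineered MSC against PBS 6 of 14 were higher and 8 lower, with a median of -0.06. Il1b, the cytokine interleukin 1 beta, was at 671 CPM in engineered MSC, 1348 CPM in native MSC and 966 CPM in PBS, and it was 2.01-fold lower (95% interval 1.86 to 2.17) in engineered MSC than in native MSC. Cxcl2, a neutrophil chemoattractant, was at 887 CPM in engineered MSC, 1773 CPM in native MSC and 864 CPM in PBS, and B-cell barcodes held 59.6 CPM in engineered MSC, 652 CPM in native MSC and 197 CPM in PBS. Ccl3, a ligand of CCR1, was at 346 CPM in engineered MSC, 529 CPM in native MSC and 352 CPM in PBS, and 10 barcodes held 73.1% of its UMIs in engineered MSC. All 3 were highest in native MSC, and for Cxcl2 and Ccl3 the intervals of engineered MSC and PBS overlapped. Osm, which encodes oncostatin M, broke this order, with native MSC near PBS and engineered MSC lower, at 135 CPM in engineered MSC, 243 CPM in native MSC and 234 CPM in PBS. Cxcl3 had 8 UMIs in engineered MSC, 707 in native MSC and 5 in PBS, and the B-cell barcodes of native MSC held 107 CPM, above its 53.3 CPM in early monocytes there. Cxcl1, another neutrophil attractant, had 5 in engineered MSC, 382 in native MSC and 23 in PBS as UMIs, and Ccl5, a chemokine of lymphocytes, was at 86.0 CPM in engineered MSC, 27.5 CPM in native MSC and 9.87 CPM in PBS. The 10 T, NK and innate lymphoid cell genes of the check moved with Ccl5, summing to 212 CPM in engineered MSC, 103 in native MSC and 26.4 in PBS, and their part was not tested.

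Most genes of macrophage differentiation, of alternative activation, and of hypoxia and glycolysis were lower in engineered MSC than in PBS. Of 14 macrophage differentiation genes 12 were lower (median log2 ratio -0.52), of 10 genes of alternative activation and arginine use 9 (median -0.89) and of 17 genes of hypoxia and glycolysis 16 (median -0.50), against 52.7% of all genes compared. The macrophage differentiation median was -0.81 when trimmed. With granule-rich and cycling barcodes left out, 9 of those 14 genes were lower (median -0.24, against -0.07 over all genes). The medians were then -0.70 for alternative activation and -0.56 for hypoxia and glycolysis. In native MSC against PBS the medians were -0.29 for macrophage differentiation, -0.48 for alternative activation and -0.20 for hypoxia and glycolysis, where all genes stood at -0.15. Tgfbi, a matrix protein induced by TGF-beta, was at 350.0 CPM in engineered MSC, 511 CPM in native MSC and 754 CPM in PBS, 2.15-fold lower (95% interval 1.93 to 2.41) in engineered MSC than in PBS. Pkm, the last enzyme of glycolysis, was at 475 CPM in engineered MSC, 689.6 CPM in native MSC and 884 CPM in PBS. Eno1, the enolase of the same pathway, was at 158 CPM in engineered MSC, 252 CPM in native MSC and 329.9 CPM in PBS. Arg1, the arginase of alternatively activated macrophages, was at 42.5 CPM in engineered MSC, 90.0 CPM in native MSC and 78.6 CPM in PBS, with UMIs in 27 barcodes in engineered MSC, 313 in native MSC and 67 in PBS. Il1rn, the interleukin 1 receptor antagonist, was at 7.91 CPM in engineered MSC, 16.8 CPM in native MSC and 27.6 CPM in PBS. Nr1h3, the oxysterol receptor LXR alpha, was at 15.8 CPM in engineered MSC, 12.8 CPM in native MSC and 47.6 CPM in PBS. Egln3, an oxygen sensor, was at 6.92 CPM in engineered MSC, 14.9 CPM in native MSC and 24.4 CPM in PBS. Slc2a3, a glucose transporter, was at 7.91 CPM in engineered MSC, 22.0 CPM in native MSC and 8.42 CPM in PBS. Most of these levels were in the order engineered MSC, native MSC, PBS from low to high, with Arg1 and Slc2a3 among the exceptions. Spp1, which encodes osteopontin of lipid-associated macrophages, went the other way at 2591 CPM in engineered MSC, 1349 CPM in native MSC and 290.2 CPM in PBS, and 10 barcodes held 98.0% of its UMIs in engineered MSC. Gpnmb, a glycoprotein of the same macrophages, was at 296 CPM in engineered MSC, 142 CPM in native MSC and 119 CPM in PBS. Mmp12, macrophage elastase, was at 7.91 CPM in engineered MSC, 0.905 CPM in native MSC and 62.4 CPM in PBS. Over 14 lipid-associated macrophage genes the median was 0.03 in engineered MSC against PBS, and trimmed it was -0.68.

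Sensing and effector lists were mostly lower in engineered MSC than in native MSC. Of 15 pattern recognition receptors 14 were lower in that pair (median log2 ratio -0.44, against 0.17 over all genes, of which 37.4% were lower at all), where Cd14, the coreceptor for endotoxin, was at 405 CPM in engineered MSC, 692 CPM in native MSC and 473 CPM in PBS and Fpr1, a receptor for formyl peptides, at 14.8 CPM in engineered MSC, 32.2 CPM in native MSC and 14.5 CPM in PBS. The 6 Fc gamma receptor genes and their partners had medians of -0.21 in engineered MSC against PBS and -0.05 in native MSC against PBS, and the 6 NADPH oxidase genes had -0.26 in engineered MSC against PBS and -0.01 in native MSC against PBS. In engineered MSC against native MSC all 6 Fc gamma receptor genes and partners were lower (median -0.26), and 5 of the 6 NADPH oxidase genes (median -0.37). Of 14 myeloid transcription factors the median was -0.19 in engineered MSC and -0.31 in native MSC against PBS, with Cebpe, a factor of granulocyte maturation, at 18.8 CPM in engineered MSC, 10.49 CPM in native MSC and 5.22 CPM in PBS and Bhlhe40, a repressor of the basic helix-loop-helix family, at 49.4 CPM in engineered MSC, 45.03 CPM in native MSC and 103 CPM in PBS. Of 11 coagulation genes, 9 were measured in engineered MSC against PBS (median -0.30) and 10 in native MSC against PBS (median 0.12), where Plau, the urokinase activator of plasminogen, was at 1.98 CPM in engineered MSC, 4.07 CPM in native MSC and 15.1 CPM in PBS. Ncf1, a cytosolic subunit of the oxidase, was at 158 CPM in engineered MSC, 200.3 CPM in native MSC and 273 CPM in PBS. Fcgr4, a receptor for immunoglobulin G, was at 97.9 CPM in engineered MSC, 151 CPM in native MSC and 95.8 CPM in PBS. The 15 ribosomal protein genes were higher in both MSC livers, with medians of 0.30 in engineered MSC and 0.38 in native MSC against PBS.

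Immediate early and stress genes are sensitive to tissue dissociation. Of 16 such genes 11 were lower in engineered MSC than in PBS (median log2 ratio -0.41), where 52.7% of all genes compared were lower. In native MSC 14 of 16 were lower than in PBS (median -0.22, near the -0.15 of all genes, of which 65.7% were lower), and the 11 NF-kappaB feedback genes had a median of -0.17 in both. Hspa1a, an inducible heat shock protein, was at 502 CPM in engineered MSC, 137 CPM in native MSC and 409 CPM in PBS, and its neighbour Hspa1b at 542 CPM in engineered MSC, 111 CPM in native MSC and 426 CPM in PBS. Both were lowest in native MSC, while Atf3, a stress-induced transcription factor, was at 509 CPM in engineered MSC, 714 CPM in native MSC and 965 CPM in PBS and Zfp36, which destabilises cytokine transcripts, at 1077 CPM in engineered MSC, 1065 CPM in native MSC and 1530.5 CPM in PBS. The paralogs Hspa1a and Hspa1b are nearly identical, so their split is uncertain.

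**Figure D4:**
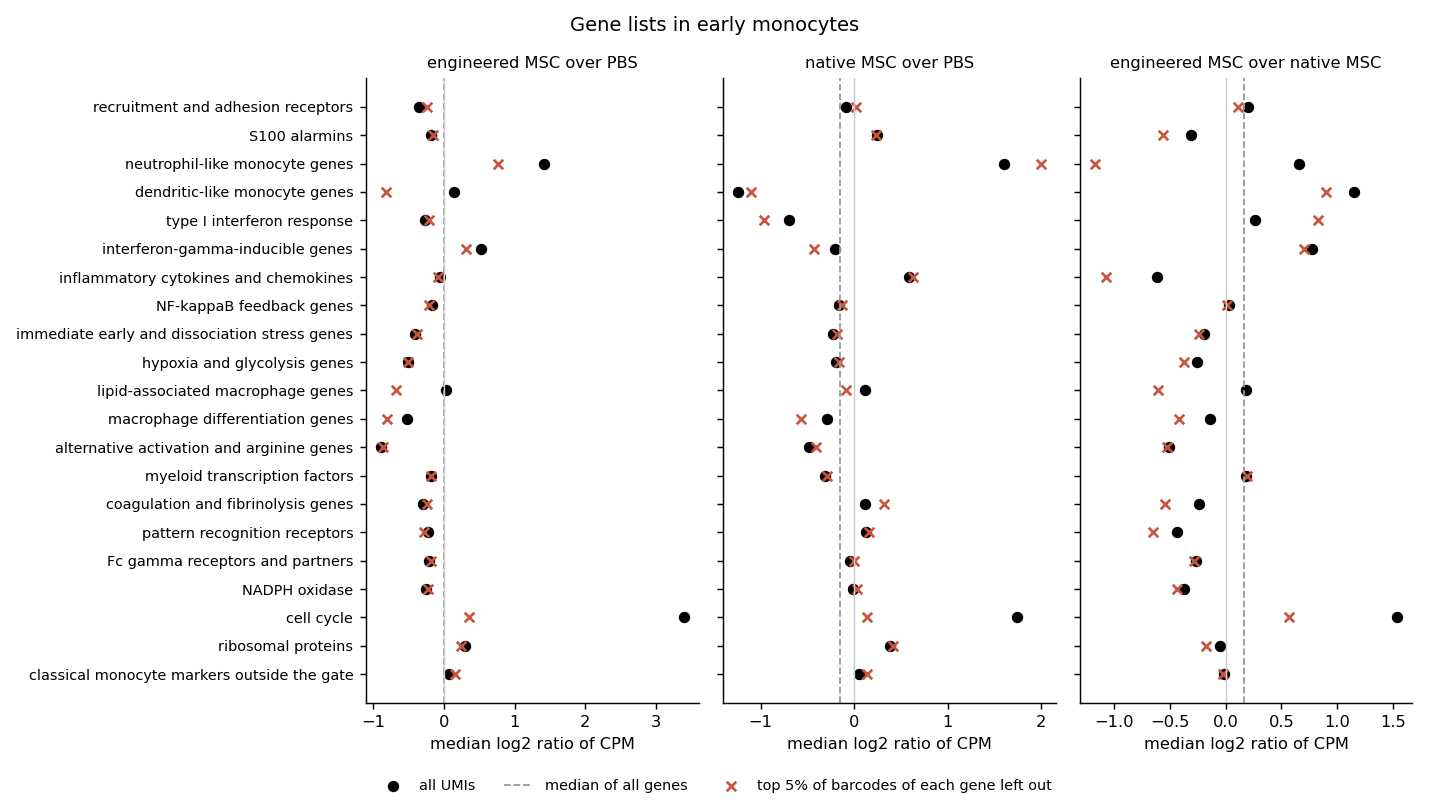
Median log2 ratio of CPM over the measured genes of each list in early monocytes, for engineered MSC over PBS, native MSC over PBS and engineered MSC over native MSC; circles use all UMIs, crosses leave out the top 5% of barcodes of each gene, and the dashed line is the median of all genes. Cell cycle stood at 3.39 in engineered MSC over PBS and at 0.36 when trimmed, while the dendritic-like list stood at -1.24 in native MSC over PBS.

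Apart from the lists, the genes most different on trimmed levels were taken after the values were seen. Tgm2, a transglutaminase that crosslinks proteins, had a trimmed level of 74.2 CPM in engineered MSC, 94.8 CPM in native MSC and 299 CPM in PBS, 4.02-fold lower (95% interval 3.16 to 5.21) in engineered MSC and 3.15-fold lower (95% interval 2.89 to 3.43) in native MSC than in PBS. Rgs1, which dampens signalling of chemokine receptors, was 5.89-fold lower (95% interval 3.95 to 9.19) in engineered MSC and 3.42-fold lower (95% interval 3.03 to 3.86) in native MSC than in PBS. Itgb5, an integrin beta chain, stood at trimmed levels of 95.04 CPM in engineered MSC, 146 CPM in native MSC and 339 CPM in PBS. Tgfbr1, a TGF-beta receptor, was at 44.0 CPM in engineered MSC, 53.9 CPM in native MSC and 154 CPM in PBS. All 4 were lower in both MSC livers, and each was found in over 10% of the early monocytes of every liver. Among the genes furthest apart between native MSC and PBS were Axl, a receptor for apoptotic cells, at trimmed levels of 10.6 CPM in engineered MSC, 6.33 CPM in native MSC and 32.9 CPM in PBS. F5, coagulation factor V, was at 34.3 CPM in engineered MSC, 38.8 CPM in native MSC and 10.9 CPM in PBS. Higher in engineered MSC than in both other livers was Tiam1, an activator of the GTPase Rac, at 107 CPM in engineered MSC, 46.9 CPM in native MSC and 44.4 CPM in PBS. Ltb4r1, the receptor for leukotriene B4, was highest in native MSC at 56.0 CPM in engineered MSC, 89.8 CPM in native MSC and 35.1 CPM in PBS.

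On untrimmed levels, many of the genes furthest from equality came from a few barcodes. Beside Elane, Ctsg, Mpo, Mki67 and Top2a, Kif11, a spindle motor, led in engineered MSC over PBS with 68 UMIs in 9 barcodes, against 5 UMIs in 4 barcodes. Lowest in engineered MSC against PBS were Adam23, Grm8, Mgp, Siglech, Dcn and Bmp6, with 0, 0, 0, 0, 7 and 1 UMIs in engineered MSC, against 93, 50, 298, 61, 184 and 64 UMIs in PBS. Of these, Mgp and Dcn encode matrix proteins of stromal cells and Bmp6 a signal of liver endothelium, and the 10 top barcodes of PBS held 99.7%, 92.9% and 93.8% of their UMIs. In native MSC against PBS the highest were Rgn, Elane, Ctsg, Gzma, Retnlg and Cstdc5, and Gzma, a granzyme of cytotoxic lymphocytes, had 502 UMIs in native MSC and 1 in PBS. The lowest there were Adam23, Kdr, Mgp, Gpr182, Ltf and Sema6a, and Kdr, the VEGF receptor of endothelium, had 19 UMIs in native MSC, against 112 in PBS. The 10 endothelial genes of the check summed to 110 CPM in engineered MSC, 21.0 in native MSC and 264 in PBS. In engineered MSC against native MSC Cxcl9, Clu, Camp, Ngp, Cadm1 and Ltf were the highest, and Col3a1, Asprv1, Plac9, Retnlg, Stfa1 and Cstdc5 the lowest. Cstdc5 and Stfa1, stefin-family genes of neutrophils, had 302 and 181 UMIs in native MSC and 0 in engineered MSC.

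Within each liver early monocytes were set beside the other classical monocytes, as a description of the split. Among 5363 genes outside the rule with enough UMIs, 18 were above 2-fold higher (0.336%) and 39 above 2-fold lower (0.727%) in early monocytes in all 3 livers. In total 1637 were higher at all in every liver (30.5%). Nothing is read from these counts because the rule used the same contrast. Ly6a2, a Ly6 family gene, had ratios of 4.56 in engineered MSC, 3.88 in native MSC and 3.21 in PBS. The orphan receptor gene Gpr141 had ratios of 2.91 in engineered MSC, 1.93 in native MSC and 1.98 in PBS, and Hp, the haemoglobin scavenger haptoglobin, 2.11 in engineered MSC, 1.81 in native MSC and 2.41 in PBS. Prtn3 (19.8 in engineered MSC, 5.85 in native MSC and 3.59 in PBS) and S100a8 (1.94 in engineered MSC, 1.67 in native MSC and 4.00 in PBS) were higher on the early side too, as were Ldlrad3, Gbp2, Abcd2, Arhgef37 and Camp, the last from single barcodes in engineered MSC and PBS. Lower on the early side were chemokines, with Cxcl3 at ratios of 0.0157 in engineered MSC, 0.118 in native MSC and 0.0306 in PBS. Ccl7, a ligand of CCR2, had ratios of 0.0283 in engineered MSC, 0.133 in native MSC and 0.163 in PBS. For Ccl24, which draws eosinophils, they were 0.198 in engineered MSC, 0.209 in native MSC and 0.361 in PBS. Arg1 had ratios of 0.0834 in engineered MSC, 0.177 in native MSC and 0.339 in PBS, and Pf4, platelet factor 4, of 0.0336 in engineered MSC, 0.110 in native MSC and 0.329 in PBS. Both were lowest in engineered MSC. The mucin-type protein gene Pdpn, the endocytic adaptor Dab2, Basp1, Emp1 and Cxcl1 completed the 10 genes furthest below.

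The list medians of the same split are also a description, and nothing is read from them because the rule used this contrast. The median log2 ratio of early over other classical monocytes was -1.32 in engineered MSC, -1.001 in native MSC and -1.03 in PBS for alternative activation and arginine genes. For cytokines and chemokines it was -0.85 in engineered MSC, -0.77 in native MSC and -0.65 in PBS. For lipid-associated macrophage genes it was -0.58 in engineered MSC, -0.84 in native MSC and -0.66 in PBS, and for hypoxia and glycolysis -0.69 in engineered MSC, -0.45 in native MSC and -0.27 in PBS. The NADPH oxidase genes, which make the respiratory burst, went the other way at 0.57 in engineered MSC, 0.50 in native MSC and 0.28 in PBS, with all 6 genes higher in each liver. The type I interferon list stood at 0.83 in engineered MSC, 0.44 in native MSC and -0.04 in PBS, and the neutrophil-like list at 4.76 over 12 genes in engineered MSC, 1.21 in native MSC and 1.85 in PBS. With marked doublets left out, engineered MSC stood at 1.75 for the type I interferon list and at 1.31 over 7 genes for the neutrophil-like list. Over all genes the medians were 0.06 in engineered MSC, 0.01 in native MSC and 0.02 in PBS.

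**Figure D5:**
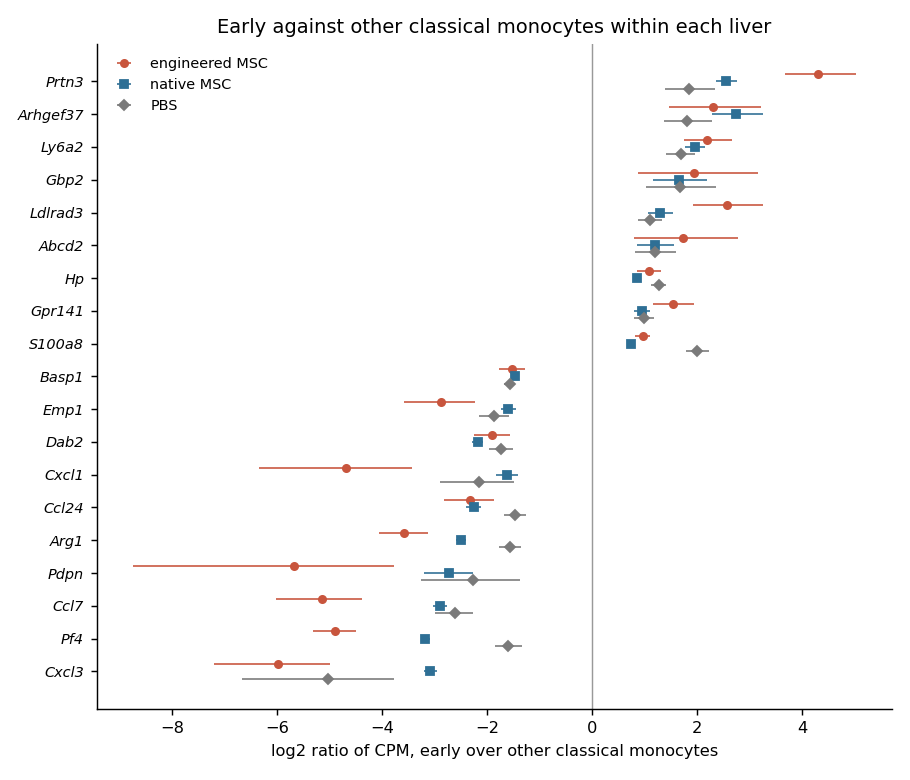
Log2 ratio of CPM in early over other classical monocytes within each liver, with exact 95% intervals (counting error only), for 19 genes named by the rule for this contrast; Camp is not drawn because single barcodes hold its UMIs in engineered MSC and PBS. Ly6a2 lay above and Cxcl3, Pf4 and Arg1 below equality in all 3 livers; the split itself comes from the rule, so the plot is a description.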

How the data were processed

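Single-cell RNA was measured in 3 livers, 1 mouse and 1 library each, by 10x 3' sequencing. The deposited files hold raw UMI counts of 34099 genes per barcode, made by the authors with Cell Ranger 7.1.0 on build GRCm39, per the file headers and the submitters' processing notes. Doublets were kept, since the rule has no doublet step, and were marked by Scrublet in scanpy 1.11.5 at 0.8% per 1000 barcodes for an alternative. UMIs were summed over the early monocytes of a liver and expressed as CPM. The 95% intervals are exact Poisson limits for levels, conditional binomial limits for ratios and Clopper-Pearson limits for shares. The limits for levels and for ratios of levels take each UMI as an independent count. They are too narrow where few barcodes hold most UMIs of a gene. A count of 0 allows up to 3. Total UMIs were 62564254 in engineered MSC, 84950721 in native MSC and 82247448 in PBS. B-cell barcodes had at least 2 UMIs of Cd79a, at least 1 of Cd79b and none of Csf1r or C1q.

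The members and lists were chosen with earlier results of these data known. For each pair, 6 genes in each direction were named by the interval bound nearest to equality, among genes with at least 50 UMIs in the higher library and at least 2 times the CPM of B-cell barcodes there. The 2 members of each list with the largest ratio and, within livers, 10 genes in each direction were also chosen; some are given by count only or are not reported here. Mitochondrial, ribosomal, haemoglobin, immunoglobulin, sex-linked, hepatocyte and unnamed genes were not eligible. Other list members given with values (among them Lcn2, Mmp8, Saa3, Itgal, Nr4a1, Ccr1, Cd74, Ifi27l2a, Bst2, Il1b, Cxcl2, Ccl3, Tgfbi and Pkm) and the genes of trimmed levels were chosen after their values were seen, as was trimming itself. Alternatives changed the barcode filters, depth, split, scaling, weights and minimum. Python 3.11.15, numpy 2.4.6, scipy 1.17.1, pandas 2.3.3 and matplotlib 3.10.9 were used. The ratios and the intervals of ratios and shares were tested on simulated independent counts, without barcodes. That test does not cover UMIs gathered in few barcodes, nor trimming.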

Additional observations from a re-analysis of the deposited data

Results flagged for a closer look

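Several quantities lay on opposite sides of equality in early over other classical monocytes in different livers, and none of these differences was tested, since each liver is 1 library. The dendritic-like list had a median log2 ratio of 0.28 in engineered MSC, -1.07 in native MSC and 0.0066 in PBS. The coagulation and fibrinolysis list stood at -0.22 in engineered MSC, -0.34 in native MSC and 0.39 in PBS. Col3a1, a collagen chain of stromal cells, had ratios of 0.0152 in engineered MSC, 2.86 in native MSC and 1.32 in PBS. Dcn, the matrix proteoglycan decorin, had ratios of 0.0218 in engineered MSC, 4.08 in native MSC and 1.21 in PBS, with UMIs in 6 early monocytes in engineered MSC, 33 in native MSC and 23 in PBS.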

How the results depend on the processing

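No paired analysis was possible because each group holds 1 library. Of 103 alternative values of the shares and counts, 76 stayed within the tolerance and 27 moved. Only the ratios of shares of kept barcodes could be labelled reversed, and 0 of them were. The other shares and the counts could only stay or move. Of 378 list medians and 218 values of named genes 6 and 8 reversed. A list median could be labelled reversed only where its main value was at least 0.5 either way. Sign changes of smaller medians are therefore not among the 6. Thinned to 1500 UMIs, the share ratio was 0.123 in engineered MSC over PBS, 1.18 in native MSC over PBS and 0.104 in engineered MSC over native MSC, and the share of classical monocyte barcodes in native MSC was 71.4%. Over barcodes with a Ptprc UMI the ratios were 0.302 in engineered MSC over PBS and 0.117 in engineered MSC over native MSC. With the early sum at least 2 times the other sum plus 1, early monocytes were 43.4% of classical monocyte barcodes in engineered MSC (36.1 to 50.9), 51.0% in native MSC (48.7 to 53.2) and 33.9% in PBS, and Clu was at -0.10 in engineered MSC over native MSC.

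With a minimum of 20 UMIs, which admits more genes, those above 2-fold were 709 higher and 511 lower in engineered MSC over PBS, 863 and 899 in native MSC over PBS, and 1500 and 685 in engineered MSC over native MSC. The alternatives of trimming and of leaving out granule and cycling members were chosen after seeing the data. Trimmed, the counts were 123 and 151 in engineered MSC over PBS, 78 and 126 in native MSC over PBS, and 230 and 103 in engineered MSC over native MSC, where 11 lists against 6 had a median of at least 0.5 either way. Without granule and cycling members, 149 genes were higher in engineered MSC over PBS, 279 in native MSC over PBS and 561 in engineered MSC over native MSC, and 3 lists against 6 passed 0.5 in engineered MSC over PBS. Mpo and other members of the neutrophil-like and cell cycle lists had chosen the members left out, so a fall of these values was built in. Without those members Mpo was at -0.92, the neutrophil-like list at -0.16 and cell cycle at -0.043 in engineered MSC over PBS. In engineered MSC over native MSC Camp was then at -2.23, Ngp at -3.50, Ltf at -2.19 and the neutrophil-like list at -1.57, or -1.18 when trimmed. Without doublets 171 genes were higher in engineered MSC over PBS, where the neutrophil-like list was at -0.35, and in engineered MSC over native MSC Camp was at -5.64, Ngp at -3.76, Ltf at -1.78 and the neutrophil-like list at -1.66. The cause of the other moves was not tested. With 113 early monocytes, engineered MSC limits the precision of each comparison it enters.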
